A study of Homo sapiens with 9 samples.

Results

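The genes described here are 39 that mark epithelial, pancreatic ductal or mesenchymal identity. They were listed by gene name, with earlier results of these data known, and are 39 of the 56865 genes summed from the deposited transcript values. They comprise 7 keratins, 9 adhesion and junction genes, 4 regulators of the epithelial programme, 9 ductal or pancreatic genes, 5 structural genes of mesenchymal cells, and 5 transcription factors of the epithelial to mesenchymal transition (EMT). The cells carry the label BxPC3, an established pancreatic adenocarcinoma line, with the genotype label p53Y220C/-. They received MS172, PK9328 or the vehicle DMSO, with 3 poly(A)-selected RNA libraries in each group. The treatment protocol gives 5 µM and 6 h. It names MS78 where titles and treatment labels name MS172, so dose and time of MS172 rest on a protocol that uses another compound name. Growth in RPMI with serum was shared by all groups, and no group without DMSO or compound is among them. The labels do not say whether the libraries of a group came from separate cultures, so p-values measure the spread between these libraries, which may be technical.

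Epithelial cells are held in sheets by E-cadherin junctions and by tight junctions built of claudins, occludin and ZO-1, and are stiffened by keratin filaments. Ductal cells of the pancreas are epithelial, and their keratins KRT7, KRT8, KRT18 and KRT19 and their factor SOX9 are widely used as ductal markers. Mesenchymal cells carry vimentin filaments and deposit fibronectin and type I collagen, and factors such as ZEB1 and SNAI1 repress epithelial genes through short DNA motifs called E-boxes. BxPC3 is usually described as an epithelial line with E-cadherin, EPCAM and KRT7, and with a deletion of SMAD4, the shared partner of the TGF-beta and BMP SMADs.

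The claudin promoters are shown because claudin 4 was abundant in these libraries while claudins 3 and 7 were at or near the detection limit. The sequences are RefSeq promoters on GRCh38.p14, from 250 bases before to 50 bases after an annotated RefSeq transcript start (which can differ from the outermost gene boundary in GENCODE 29), written 5′ to 3′ on the strand of the gene. Capitals mark CACCTG and CAGGTG, which are the same E-box read on either strand. The regions are chr7:73770221-73770520 on the minus strand for CLDN3, chr7:73830746-73831045 on the plus strand for CLDN4, and chr17:7262429-7262728 on the minus strand for CLDN7. Gene positions given below come from GENCODE 29 (GRCh38) and count from 1.
CLDN3: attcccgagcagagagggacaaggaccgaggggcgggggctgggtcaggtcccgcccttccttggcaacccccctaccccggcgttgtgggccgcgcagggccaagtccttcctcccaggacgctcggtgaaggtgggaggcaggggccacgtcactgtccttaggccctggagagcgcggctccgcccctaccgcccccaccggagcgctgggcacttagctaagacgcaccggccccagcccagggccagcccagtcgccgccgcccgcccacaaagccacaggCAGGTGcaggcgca
CLDN4: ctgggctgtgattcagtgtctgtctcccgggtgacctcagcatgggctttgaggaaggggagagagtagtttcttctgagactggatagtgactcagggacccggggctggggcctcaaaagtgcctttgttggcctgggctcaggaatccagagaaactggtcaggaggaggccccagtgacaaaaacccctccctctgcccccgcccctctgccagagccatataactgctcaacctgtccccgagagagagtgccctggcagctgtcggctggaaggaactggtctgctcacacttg
CLDN7: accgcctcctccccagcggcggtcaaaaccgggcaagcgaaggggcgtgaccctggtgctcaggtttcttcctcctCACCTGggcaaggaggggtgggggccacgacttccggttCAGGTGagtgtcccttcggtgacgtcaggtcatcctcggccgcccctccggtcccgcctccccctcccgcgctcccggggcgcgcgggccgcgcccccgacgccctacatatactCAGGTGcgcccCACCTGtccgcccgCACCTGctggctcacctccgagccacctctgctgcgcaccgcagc
The CLDN7 promoter held the E-box 5 times, beginning at bases -174, -135, -20, -9 and 5 counted from the transcript start. The CLDN3 promoter held it once, beginning at base 36, and the CLDN4 promoter did not hold these letters. A second CLDN7 promoter in the table held none. The presence of the letters went with a low level in some identity genes and not in others. Both promoters of OCLN (1 and 2 times) and both of MUC1 (2 times each) held them although the genes were expressed. So did that of ELF3 (1 time) and 2 of those of ZEB1 (1 and 3 times). The promoters of CEACAM6, TSPAN8, CFTR and ZEB2 held none although these genes were at or near zero reads. By contrast, those of AGR2, CEACAM5 and KRT5 held them (1 time each), with the genes at or near zero reads. Those of VIM, KRT8, CLDN1 and SPARC held none, with the genes expressed. Among all 35116 promoters of the same length 7231 (20.6%) held it at least once, against 13 of the 36 promoters listed for 22 of the identity genes (36.1%). The other 17 identity genes have no entry. A match is a description of letters, not of a bound site.

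With DMSO, 24 of the 39 identity genes were under 1 TPM. The 15 that reached 1 TPM were a larger share than the 12292 of all 56865 summed genes that did so. The summed genes were not limited to protein-coding genes, so these shares do not compare like with like. Of the identity genes, 10 reached 10 TPM and 5 reached 100 TPM, levels for which no count over all genes was made. TPM is a level corrected for transcript length and for the library total. By group, 1 TPM was reached by 3 of 7 keratins, 4 of 9 adhesion genes, 1 of 4 regulators and 2 of 9 ductal genes. It was also reached by 3 of 5 mesenchymal structural genes and 2 of 5 EMT factors. The 5 genes at 100 TPM or more were vimentin, COL1A2 and the 3 abundant keratins. Of the 39 genes, 18 passed the filter on low counts and were tested, and the other 21 are described by their estimated reads.

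**Figure D1:**
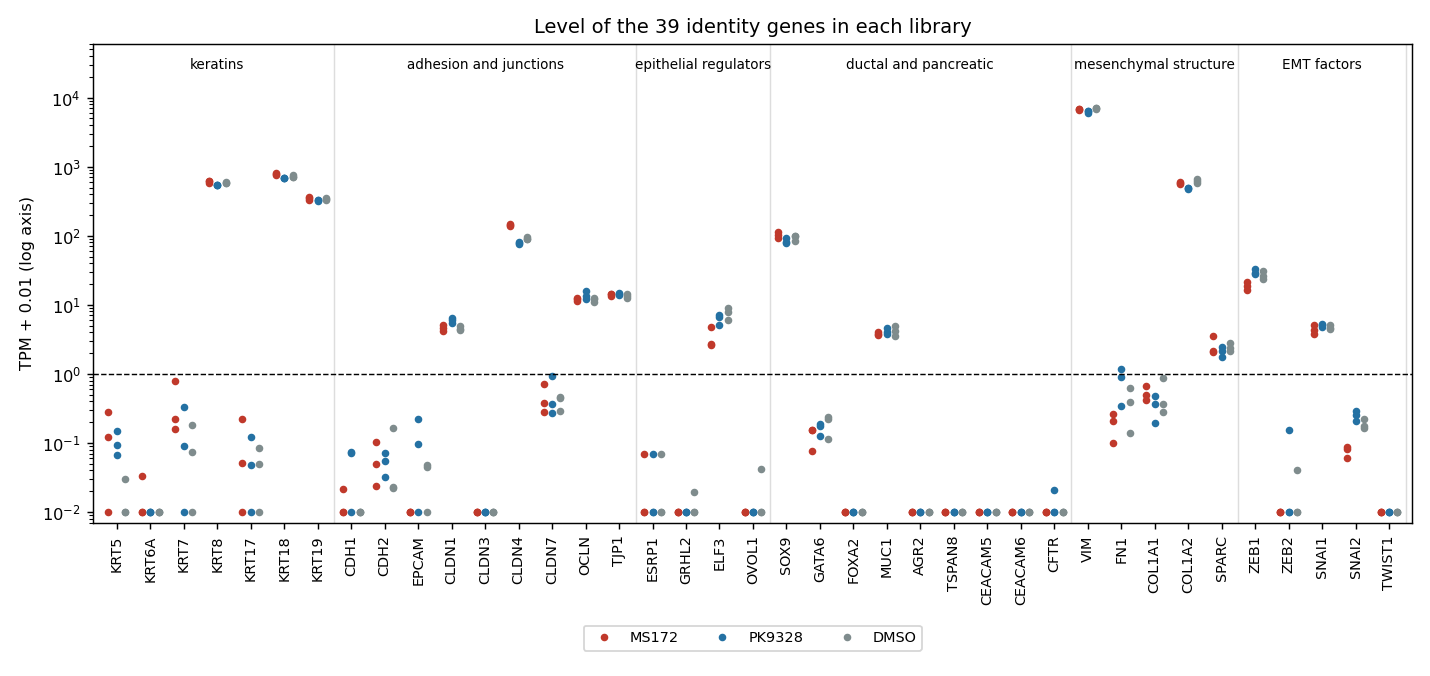
Level of each of the 39 identity genes in each library, in TPM with 0.01 added, on a log axis, grouped by role. Each point is a library (MS172, PK9328 and DMSO from left to right within a gene), and the dashed line marks 1 TPM. VIM is the highest gene and 7 genes lie at zero in all 9 libraries.

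Vimentin (VIM), the main intermediate filament protein of mesenchymal cells, was at 7026 ± 190 TPM with DMSO (SD, n = 3 as for all groups here) and ranked 13 among all genes. The keratins of simple epithelium followed, with KRT18 at 728 ± 24 TPM, its filament partner KRT8 at 588 ± 14 TPM and KRT19 at 339 ± 7.7 TPM. VIM made up 79.3% to 81.3% of the summed TPM of VIM and the 7 listed keratins in the 9 libraries. COL1A2, the alpha-2 chain of type I collagen, stood at 625 ± 40 TPM, and its DMSO libraries overlapped those of KRT8, whereas KRT18, VIM and KRT19 each lay apart from their neighbours in the order. The tight junction gene CLDN4 (92.3 ± 1.9 TPM) and the ductal and progenitor factor SOX9 (93.5 ± 7.9 TPM) did not differ beyond their spread.

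The EMT factor ZEB1 followed at 27.1 ± 3.9 TPM with DMSO. The junction scaffold TJP1, which encodes ZO-1, was at 13.5 ± 0.78 TPM and the tight junction protein OCLN at 11.9 ± 0.82 TPM, followed by the epithelial transcription factor ELF3 at 7.63 ± 1.6 TPM. The EMT factor SNAI1 (4.67 ± 0.36 TPM), the tight junction gene CLDN1 (4.55 ± 0.28 TPM) and the mucin MUC1 (4.21 ± 0.65 TPM) overlapped one another. The matricellular gene SPARC was the last above 1 TPM, at 2.43 ± 0.31 TPM.

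Several of the genes that define epithelial cells in most tissues were at or near the detection limit, unlike KRT8 and KRT18. E-cadherin (CDH1) had at most 1 estimated read in any library, the epithelial cell adhesion molecule EPCAM at most 2 and the ductal keratin KRT7 at most 3. The basal keratins KRT5, KRT6A and KRT17 had at most 7, 1 and 2 estimated reads. Of the regulators that hold the epithelial state, ESRP1, a splicing factor, had at most 2 estimated reads, and the transcription factors GRHL2 and OVOL1 at most 1 each. No estimated read was assigned in any of the 9 libraries to CLDN3, to the endoderm factor FOXA2, to the secretory and surface genes AGR2, TSPAN8, CEACAM5 and CEACAM6, or to the EMT factor TWIST1. A count of 0 allows up to 3 reads, which is 0.107 to 0.125 CPM in a single library, a limit that covers counting error only. CFTR, the chloride channel of ductal cells, had 1 estimated read in all libraries together.

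The mesenchymal genes were also uneven. N-cadherin (CDH2), the cadherin that replaces E-cadherin in mesenchymal cells, had 1 to 5 estimated reads per library and ZEB2 at most 1. SNAI2 had 3, 3 and 2 estimated reads with MS172, 10, 12 and 8 with PK9328, and 9, 7 and 6 with DMSO. It did not pass the filter on low counts, so this difference was not tested. Fibronectin (FN1) had 5 to 20 estimated reads and COL1A1, the alpha-1 chain that pairs with the product of COL1A2 in type I collagen, had 27 to 46. COL1A2 had 48334 to 71777 estimated reads, and the TPM ratio of COL1A2 to COL1A1 was 676 to 2524 across libraries. Of the 21 untested genes, 17 had at most 3 estimated reads in every library. The highest value of any untested gene was 12 estimated reads, and the highest level was 0.923 TPM for CLDN7.

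These levels go against the usual description of the label. EPCAM, CDH1 and KRT7 were at the detection limit, and SMAD4 was present at 12.9 ± 2.4 TPM with MS172, 26.1 ± 3.2 TPM with PK9328 and 18.2 ± 1.2 TPM with DMSO. The cells are therefore called by their label throughout, and where the difference from the label's description comes from was not tested. Of the markers of other cell types, the 10 acinar genes lay under 0.5 TPM in every library (highest CEL, 0.108 to 0.266 TPM), as did the 7 endothelial genes. The 8 endocrine genes did so except CHGB (0.178 to 0.561 TPM). Fewer genes of the other lists lay under 0.5 TPM throughout. They were 4 of 6 neural genes (highest TUBB3, 126 to 182 TPM), 3 of 5 hepatocyte genes (highest SERPINA1, 43.1 to 51.8 TPM) and 5 of 7 leukocyte genes (highest CD68, 13.5 to 16.3 TPM). The same held for 4 of 5 muscle genes (highest DES, 1.42 to 3.62 TPM) and 4 of 7 melanocyte and Schwann cell genes (highest S100B, 1.61 to 2.66 TPM).

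Libraries held 24077353 to 28031886 estimated reads. Changes were tested on summed counts with TMM scaling, and the counts are given below as normalised CPM, which is not corrected for length. On this scale the median change over all tested genes was -0.02 log2 for MS172 and 0 for PK9328 against DMSO. TPM values are not scaled in this way. Their median change over 12067 genes was -0.16 log2 for MS172 and 0.05 for PK9328 against DMSO, and -0.22 for MS172 against PK9328. Of 23 calls among the identity genes, 2 had the opposite sign on unscaled TPM, both named below. Mean fragment length was 274.1 to 292.8 bases with MS172, 249.5 to 263 bases with PK9328 and 281.2 to 289.1 bases with DMSO, so PK9328 did not overlap the other groups.

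With MS172, 7 of the 18 tested identity genes were higher than with DMSO (38.9%, against 17.9% of all 13914 tested genes) and 1 was lower (5.56%, against 17.2%). Counting both directions, 8 of 18 were called (44.4%, against 35.1% of all genes). The rises covered the 3 abundant keratins, CLDN4, OCLN, SOX9 and VIM, and the fall was ELF3. With PK9328, 1 gene was higher (5.56%, against 7.98% of all genes) and 4 were lower (22.2%, against 7.48%), in all 5 of 18 (27.8%, against 15.5%). The rise was CLDN1 and the falls were KRT8, CLDN4, VIM and COL1A2. Between the compounds, MS172 was higher than PK9328 for 8 genes (44.4%, against 23.3% of all genes) and lower for 2 (11.1%, against 24.4%), in all 10 of 18 (55.6%, against 47.7%). The 3 comparisons share libraries, so they are not independent. The shares were not matched for level. Some identity genes are very abundant (VIM ranked 13 with DMSO), where small changes can be called. The median log2 change over the 18 genes was 0.17 for MS172, -0.10 for PK9328 and 0.25 for MS172 against PK9328, against -0.02, 0 and -0.03 over all tested genes.

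**Figure D2:**
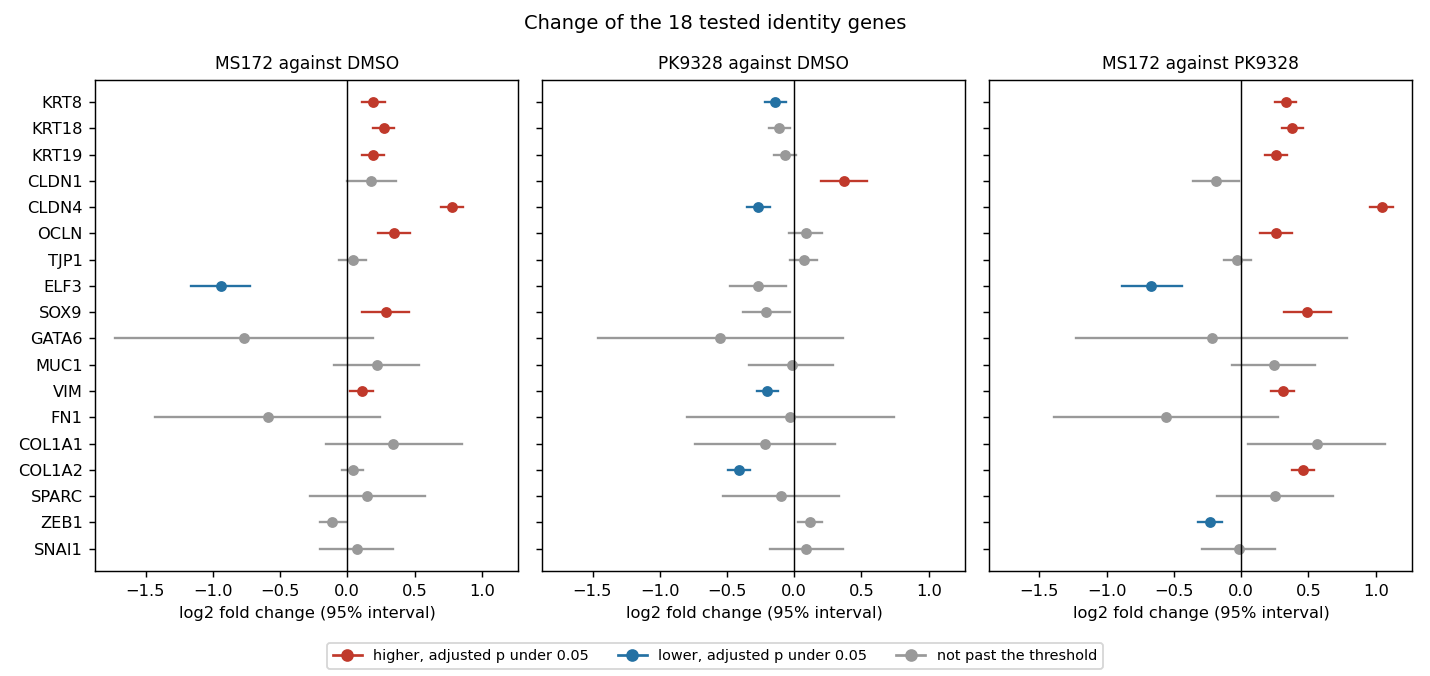
Log2 fold change with its 95% interval for the 18 tested identity genes in MS172 against DMSO, PK9328 against DMSO and MS172 against PK9328. Red marks genes higher and blue genes lower at an adjusted p under 0.05. CLDN4 lies at 0.78, -0.27 and 1.05, and ELF3 at -0.94, -0.27 and -0.67.

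The 3 abundant keratins rose with MS172 by 14.2% to 20.6%. In bulk RNA such a change can reflect fewer or more cells of a kind or less or more RNA per cell, which cannot be told apart. KRT18 had 926, 984 and 931 CPM with MS172, 719, 709.7 and 750.1 CPM with PK9328, and 818, 748 and 789 CPM with DMSO. All MS172 libraries lay above all others, while PK9328 overlapped DMSO by a single library. The log2 change with MS172 was 0.27 ± 0.04 (SE, adjusted p = 4e-06), and with PK9328 it was -0.11 ± 0.04 (adjusted p = 0.053), which missed the threshold. This change with PK9328 passed the threshold in 5 of 18 alternative analyses, with adjusted p from 0.012 to 0.69 over the 18. KRT8 had 813, 864 and 836 CPM with MS172, 656, 651 and 690.3 CPM with PK9328, and 756, 696 and 744 CPM with DMSO, again with MS172 above the rest, and here with PK9328 below all DMSO libraries. KRT8 rose with MS172 by 0.19 ± 0.04 log2 (adjusted p = 0.00028) and fell by 0.14 ± 0.04 with PK9328 (adjusted p = 0.016).

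KRT19, a keratin used as a ductal marker, had 341, 367 and 359 CPM with MS172, 289.7, 294 and 305 CPM with PK9328, and 320.1, 297 and 317 CPM with DMSO. It rose with MS172 by 0.19 ± 0.04 log2 (adjusted p = 0.00023), and PK9328 overlapped DMSO, at -0.07 ± 0.04 (adjusted p = 0.23). MS172 exceeded PK9328 for KRT18 by 0.38, KRT8 by 0.33 and KRT19 by 0.26 log2 (adjusted p = 4.2e-09, 5.2e-08 and 1.4e-06). The KRT19 call between the compounds was lost with fragment length as a covariate (0.21, adjusted p = 0.061). The KRT8 to KRT18 ratio of TPM was 0.756 to 0.775 with MS172, 0.793 to 0.8 with PK9328 and 0.8 to 0.815 with DMSO. The fall of KRT8 with PK9328 was lost in 5 of 18 alternative analyses, among them fragment length as a covariate (adjusted p = 0.58) and leaving out PK9328 replicate 1 or 2 or DMSO replicate 1 or 3 (adjusted p = 0.071 to 0.1). The annotated loci of KRT8 (ENSG00000170421, chr12:52897187-52949954, minus strand) and KRT18 (ENSG00000111057, chr12:52948871-52952901, plus strand) overlap at their ends, and keratin pseudogenes can share reads, so single values depend on how the quantification split them.

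CLDN4 (ENSG00000189143, chr7:73799542-73832693, plus strand) had the largest called rise with MS172 among the identity genes and changed in opposite directions with the 2 compounds. It had 218, 215 and 196 CPM with MS172, 97.4, 102 and 105 CPM with PK9328, and 121, 120.3 and 125 CPM with DMSO. The groups did not overlap, with MS172 highest and PK9328 lowest. CLDN4 rose 1.72-fold with MS172 (log2 0.78 ± 0.04, 95% interval 0.70 to 0.86, adjusted p = 1.8e-15) and fell to 0.831 of the DMSO level with PK9328 (log2 -0.27 ± 0.04, adjusted p = 3.7e-05). Between the compounds the ratio was 2.06 (adjusted p = 1.1e-18). All 3 calls held in all 18 alternatives run. Its leading transcript made up 98.8% to 99.7% of its TPM in every library.

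CLDN1 had 14, 12.6 and 14.4 CPM with MS172, 14.3, 16.3 and 16 CPM with PK9328, and 11.4, 12.7 and 12.1 CPM with DMSO. PK9328 lay above all DMSO libraries (log2 0.37 ± 0.08, adjusted p = 0.0026), and MS172 overlapped DMSO (log2 0.18 ± 0.09, adjusted p = 0.11). The call with PK9328 was lost with counts rebuilt from length-scaled TPM (adjusted p = 0.052) and with the fragment length covariate (adjusted p = 0.58). The TPM ratio of CLDN4 to CLDN1 was 26.8 to 35 with MS172, 12.7 to 13.7 with PK9328 and 19.4 to 21 with DMSO.

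OCLN differed on the count scale but not on the length-corrected scale. It had 42, 45.1 and 45.6 CPM with MS172, 37.8, 39.9 and 33 CPM with PK9328, and 36.2, 34.2 and 33.7 CPM with DMSO, and rose with MS172 by 0.35 ± 0.06 log2 (adjusted p = 5.1e-05). Its level was 11.3, 12 and 12.6 TPM with MS172, 13.5, 15.8 and 12.2 TPM with PK9328, and 12.1, 12.6 and 11 TPM with DMSO, and all groups overlapped. The share of the longer leading transcript OCLN-205, of 5391 bases, was 63.6% to 66.7% of OCLN TPM with MS172, 44% to 46.6% with PK9328 and 45.9% to 51.1% with DMSO. The transcript OCLN-202, of 1748 bases, made up most of the rest. With counts rebuilt from length-scaled TPM the OCLN change with MS172 was 0.16 (adjusted p = 0.16), and that between the compounds, 0.26 in the counts (adjusted p = 0.00072), was 0 (adjusted p = 0.98). On unscaled TPM the sign between the compounds was opposite.

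TJP1 had 60.1 to 65.4 CPM with MS172, 59.7 to 65.9 CPM with PK9328 and 58.9 to 61.4 CPM with DMSO. The groups overlapped in every pair, at 0.04 ± 0.05 log2 with MS172 (95% interval -0.06 to 0.14, adjusted p = 0.54) and 0.07 ± 0.05 with PK9328 (-0.03 to 0.17, adjusted p = 0.38). With counts from length-scaled TPM it passed the threshold for MS172 against DMSO (0.21, adjusted p = 0.017) and against PK9328 (0.18, adjusted p = 0.021), and the value against PK9328 had the opposite sign to that from the counts.

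**Figure D3:**
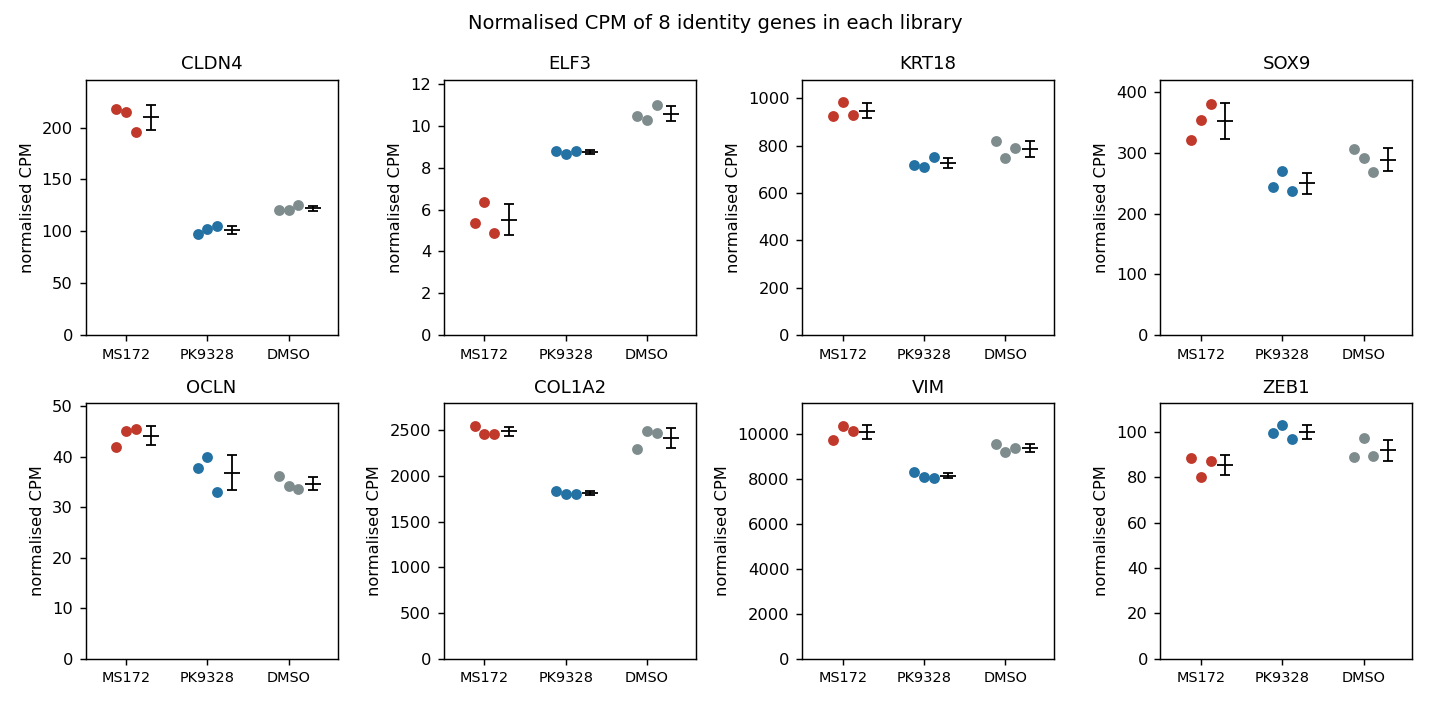
Normalised CPM of 8 identity genes in each library. Points are libraries (MS172, PK9328 and DMSO from left to right), and bars give the mean ± SD of 3 libraries. The axes begin at 0. MS172 lies above all other libraries for CLDN4 and KRT18 and below them for ELF3.

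ELF3 (ENSG00000163435, chr1:202007945-202017188, plus strand), an ETS family factor that activates epithelial genes, was the only tested regulator and the only identity gene that fell with MS172. It had 5.35, 6.35 and 4.88 CPM with MS172, 8.81, 8.65 and 8.82 CPM with PK9328, and 10.5, 10.3 and 11 CPM with DMSO. The groups did not overlap, with MS172 lowest and DMSO highest. With MS172 it fell to 0.522 of the DMSO level (log2 -0.94 ± 0.11, 95% interval -1.16 to -0.72, adjusted p = 7.6e-08). Against PK9328 the log2 change was -0.67 ± 0.11 (adjusted p = 1e-05), and both calls held in all 18 alternatives. The log2 change with PK9328, -0.27 ± 0.10, missed the threshold (adjusted p = 0.068). It passed in 2 of 18 alternatives, limma-voom (adjusted p = 0.049) and the fit of only the libraries compared (adjusted p = 0.044). ELF3 and CLDN4 thus changed in opposite directions with MS172.

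Of the ductal genes, SOX9, MUC1 and GATA6 were tested. SOX9 had 322, 354 and 381 CPM with MS172, 244, 269.6 and 237 CPM with PK9328, and 306, 291 and 269 CPM with DMSO. MS172 lay above all other libraries (log2 0.29 ± 0.08 against DMSO, adjusted p = 0.02), and PK9328 overlapped DMSO by a single library (log2 -0.21 ± 0.08, adjusted p = 0.12). The call against DMSO was lost without MS172 replicate 2 (adjusted p = 0.061) or DMSO replicate 2 (adjusted p = 0.085). The change with PK9328 passed the threshold in 4 of 18 alternatives, with adjusted p from 3.5e-05 with no filter on low counts up to 0.65 with the fragment length covariate, under which its sign turned (0.10). MS172 exceeded PK9328 by 0.49 ± 0.08 log2 (adjusted p = 0.00083), a call lost with that covariate (0.17, adjusted p = 0.15).

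MUC1 had 3.91 to 4.81 CPM with MS172, 3.38 to 4.11 CPM with PK9328 and 3.29 to 4.44 CPM with DMSO, and no comparison was called (log2 0.22 ± 0.15 with MS172, 95% interval -0.10 to 0.53, adjusted p = 0.29). GATA6, a factor of endodermal and classical pancreatic tumour cells, had 5 to 17 estimated reads per library. Its log2 change was -0.77 with MS172 (-1.73 to 0.19, adjusted p = 0.22) and -0.55 with PK9328 (-1.46 to 0.36, adjusted p = 0.46), so a change was not detectable at this depth. FOXA2, AGR2, TSPAN8, CEACAM5 and CEACAM6 stayed without reads under both compounds, and CFTR did not exceed 1 read.

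COL1A2 (ENSG00000164692, chr7:94394561-94431232, plus strand) was the mesenchymal gene with the largest called change. It had 2548, 2456 and 2456 CPM with MS172, 1834, 1806 and 1799 CPM with PK9328, and 2295, 2489.9 and 2464 CPM with DMSO. PK9328 lay below all other libraries, whereas MS172 overlapped DMSO. With PK9328 it fell to 0.75 of the DMSO level (log2 -0.41 ± 0.04, adjusted p = 5.9e-09). With MS172 the change was 0.04 ± 0.04 (95% interval -0.04 to 0.12, adjusted p = 0.44), and MS172 exceeded PK9328 by 0.46 ± 0.04 (adjusted p = 1.1e-10). Both calls held in all 18 alternatives.

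VIM had 9759.7, 10383 and 10169 CPM with MS172, 8310.4, 8107 and 8080.2 CPM with PK9328, and 9568, 9198 and 9408 CPM with DMSO. The groups did not overlap. It fell by 0.20 ± 0.04 log2 with PK9328 (adjusted p = 0.00071). The rise with MS172 was small (0.11 ± 0.04, adjusted p = 0.041). It was lost in 8 of 18 alternatives, with adjusted p up to 0.18. These were the replicate block, the fit of only the libraries compared, and leaving out MS172 replicate 2 or 3, DMSO replicate 2 or 3, or PK9328 replicate 1 or 2. On unscaled TPM the MS172 change had the opposite sign (6531, 6904 and 6974 TPM with MS172, 6394, 6324 and 6035 TPM with PK9328, 7121, 7149 and 6810 TPM with DMSO). MS172 exceeded PK9328 by 0.31 ± 0.04 log2 (adjusted p = 2.8e-07). With the fragment length covariate the VIM calls involving PK9328 were lost (adjusted p = 0.6 against DMSO, and 0.064 for MS172 against PK9328).

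The other structural genes were low. COL1A1 had 1.54 to 2.04 CPM with MS172, 1.01 to 1.5 CPM with PK9328 and 1.14 to 1.67 CPM with DMSO. FN1 had 0.209 to 0.577 CPM with MS172, 0.521 to 0.734 CPM with PK9328 and 0.451 to 0.775 CPM with DMSO. SPARC had 2.5 to 3.24 CPM with MS172, 1.9 to 3.52 CPM with PK9328 and 2.4 to 2.78 CPM with DMSO. No comparison of these 3 genes was called in the reported fit. The 95% intervals of the log2 change with MS172 were -0.16 to 0.85 for COL1A1 (adjusted p = 0.3), -1.43 to 0.24 for FN1 (adjusted p = 0.28) and -0.28 to 0.58 for SPARC (adjusted p = 0.61), so changes of moderate size could not be seen at this depth. COL1A1 came closest between the compounds, at 0.56 log2 (0.05 to 1.07, adjusted p = 0.065). Between the compounds each of the 3 genes passed the threshold in 1 alternative. For FN1 this was with counts from length-scaled TPM (-1.93, adjusted p = 0.026). For COL1A1 it was without PK9328 replicate 1 (0.74, adjusted p = 0.04), and for SPARC without PK9328 replicate 2 (0.61, adjusted p = 0.022).

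ZEB1, a zinc finger repressor of E-cadherin, had 88.3, 80.1 and 87.2 CPM with MS172, 99.3, 103 and 97 CPM with PK9328, and 88.7, 97.3 and 89.3 CPM with DMSO. MS172 lay just below all DMSO libraries and PK9328 overlapped DMSO by a single library. Neither compound passed the threshold against DMSO (log2 -0.11 ± 0.05, adjusted p = 0.07 with MS172, and 0.12 ± 0.05, adjusted p = 0.066 with PK9328). The change with PK9328 passed it in 2 of 18 alternatives. These were no filter (adjusted p = 0.034) and leaving out DMSO replicate 2 (adjusted p = 0.013). MS172 was lower than PK9328 (log2 -0.23 ± 0.05, adjusted p = 0.00013), a call lost with the fragment length covariate (adjusted p = 0.16).

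On the TPM scale the ZEB1 difference was larger, with 19, 16.2 and 21.4 TPM with MS172, 29.2, 33.3 and 27.9 TPM with PK9328, and 26.3, 31.3 and 23.6 TPM with DMSO. With counts from length-scaled TPM the change with MS172 was -0.36 (adjusted p = 0.025). The short transcript ZEB1-203, of 887 bases, made up 0 to 17.4% of ZEB1 TPM with MS172, 17.5% to 26.7% with PK9328 and 19.4% to 29% with DMSO, while the leading ZEB1 transcript, of 5423 bases, made up 73.7% to 74.8% with MS172, 64.8% to 73.1% with PK9328 and 64.1% to 67.6% with DMSO. SNAI1 had 4.92 to 6.79 CPM with MS172, 5.44 to 6.33 CPM with PK9328 and 5 to 6.05 CPM with DMSO, and no comparison was called (log2 0.07 ± 0.13 with MS172, 95% interval -0.20 to 0.34, adjusted p = 0.73).

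**Figure D4:**
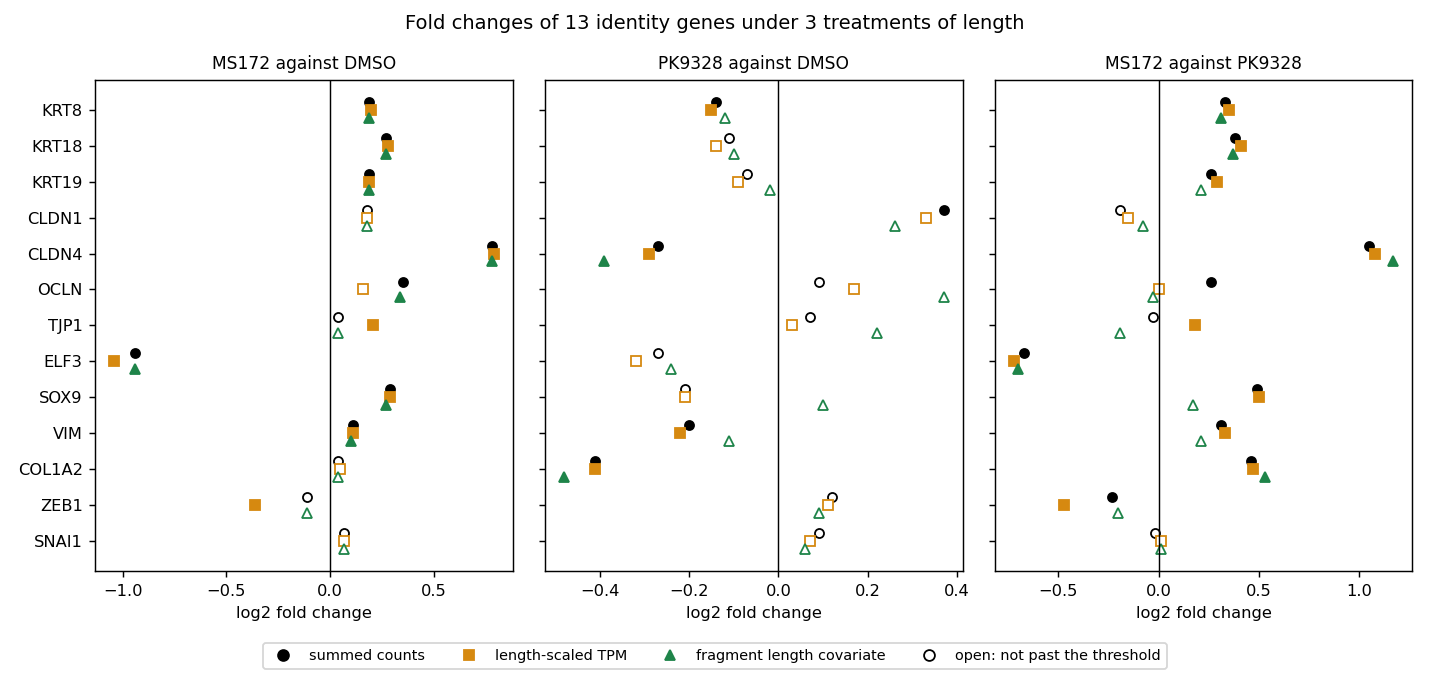
Log2 fold change of 13 tested identity genes from summed counts (circles), counts rebuilt from length-scaled TPM (squares) and summed counts with fragment length as a covariate (triangles). Open symbols did not pass the threshold. The 3 values lie close together for CLDN4 in MS172 against DMSO and apart for OCLN and ZEB1.

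With the fragment length covariate, the calls among the identity genes were 8 for MS172 against DMSO, 2 for PK9328 against DMSO and 5 for MS172 against PK9328. The covariate separates PK9328 from the other groups almost as the group label does, so effects of fragment length and of PK9328 cannot be told apart in these libraries. The calls with PK9328 that held under it were the falls of CLDN4 and COL1A2.

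Splice forms gave a further readout of identity that does not rest on gene levels. ESRP1 and ESRP2 favour epithelial exons such as IIIb of the receptor FGFR2, exon 11a of the actin regulator ENAH and the variable exons of the hyaluronan receptor CD44. ESRP2 is not among the 39 genes, and its level is not given here. Of FGFR2 transcripts with either alternative exon, 93.1% to 100% of TPM carried the mesenchymal exon IIIc, and exon IIIb had at most 6 estimated reads, at an FGFR2 level of 0.832 to 1.72 TPM. The share of coding ENAH transcripts with exon 11a was 18.8% to 21.9% with MS172, 10.2% to 12% with PK9328 and 15.1% to 15.7% with DMSO, and the groups did not overlap. Over transcripts of any type that span the exon, which include a retained-intron transcript, the share was 41.9% to 44.8% with MS172, 32.7% to 36.2% with PK9328 and 39.2% to 41.5% with DMSO. The share of coding CD44 transcripts with variable exons was 10.4% to 12.6% with MS172, 14.7% to 17.8% with PK9328 and 13.5% to 15.8% with DMSO, where MS172 lay below the other groups and PK9328 overlapped DMSO. The order of the groups was thus opposite to that of ENAH. The long form of p120 catenin (CTNND1), which is typical of mesenchymal cells, made up 8.91% to 19% of its coding TPM with MS172, 24.2% to 29.5% with PK9328 and 18.5% to 24% with DMSO, where PK9328 lay above the other groups and MS172 overlapped DMSO. With 3 libraries against 3, an exact permutation test cannot go below p = 0.10, so these shares are given without a test, and they depend on how reads were assigned to transcripts.

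Genes of the same structures that are not among the 39 were read from 9 further lists. Their counts are set against the shares of all tested genes, which were 17.9% higher and 17.2% lower with MS172, 7.98% higher and 7.48% lower with PK9328, and 23.3% higher and 24.4% lower for MS172 against PK9328. Of 6 tested other keratins, 3 fell and none rose with MS172, and 1 rose and 1 fell with PK9328. KRT13, a keratin of stratified mucosa, was at 113 ± 3.9 TPM with MS172, 245 ± 5.2 TPM with PK9328 and 182 ± 12 TPM with DMSO, with log2 changes of -0.48 (adjusted p = 5.6e-10) and 0.37 (adjusted p = 1.4e-07). KRT10, a suprabasal keratin of the skin, fell with MS172 (log2 -0.95, adjusted p = 4e-08). These keratins changed in the opposite direction to KRT8, KRT18 and KRT19 with MS172. The KRT13 call with PK9328 was lost with the fragment length covariate (adjusted p = 0.062). Among 6 other intermediate filament genes, 1 rose with MS172 and 4 fell with PK9328. Nestin (NES), a filament protein of progenitor cells, had log2 changes of 0.12 (adjusted p = 0.011) and -0.25 (adjusted p = 1.7e-05). The first was lost without MS172 replicate 3 or DMSO replicate 3 (adjusted p up to 0.058), and the second with the covariate (adjusted p = 0.24).

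Of 15 tested desmosome and hemidesmosome genes, 3 rose and 5 fell with MS172 (20% and 33.3% of the list), and none rose and 6 fell with PK9328 (40% of the list). Integrin beta 4 (ITGB4), which anchors hemidesmosomes to laminin, was at 307 ± 12 TPM with MS172, 234 ± 7.4 TPM with PK9328 and 281 ± 14 TPM with DMSO and rose with MS172 (log2 0.13, adjusted p = 0.005). The desmosomal plaque gene DSP fell with MS172 (log2 -0.24, adjusted p = 0.0046), a call lost with counts from length-scaled TPM (adjusted p = 0.064). Plectin (PLEC), which links filaments to junctions, fell with PK9328 (log2 -0.42, adjusted p = 7.1e-07), lost with the covariate (adjusted p = 0.16).

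Of 19 tested other junction genes, 2 rose and 2 fell with MS172 and 2 fell with PK9328. The adhesion receptor NECTIN2 rose with MS172 (log2 0.38, adjusted p = 3.1e-09), and CLDN15, a pore-forming claudin, fell (log2 -0.94, adjusted p = 3.4e-05). Of 11 other genes of the epithelial programme, 2 fell and none rose with MS172, and 2 rose with PK9328. EHF, an ETS factor related to ELF3, fell with MS172 (log2 -0.50, adjusted p = 4.7e-05), as did TP63, the master factor of basal and squamous epithelium (log2 -0.30, adjusted p = 4.2e-07). TP63 rose with PK9328 (log2 0.23, adjusted p = 4.7e-05), a call lost with the covariate (adjusted p = 0.24). Of 4 tested ductal and pancreatic genes outside the 39, the Notch target HES1 fell with MS172 (log2 -0.49, adjusted p = 1.5e-08) and with PK9328 (log2 -0.45, adjusted p = 1.9e-07).

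Of 28 tested genes of the mesenchymal matrix list, 10 rose and 4 fell with MS172 (35.7% and 14.3%), 12 fell and none rose with PK9328 (42.9%), and 15 were higher and none lower with MS172 than with PK9328 (53.6%). The matricellular gene CCN1 was at 46.3 ± 0.58 TPM with MS172, 18.5 ± 1.7 TPM with PK9328 and 26.1 ± 0.72 TPM with DMSO (log2 0.98, adjusted p = 8e-16 with MS172, and -0.53, adjusted p = 1.9e-08 with PK9328). Calponin (CNN1), an actin-binding protein of smooth muscle, rose with MS172 (log2 1.12, adjusted p = 0.0016). The collagen VI gene COL6A3 fell with MS172 (log2 -0.22, adjusted p = 0.00014). The list median was 0.12 with MS172 and -0.16 with PK9328.

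Of 14 other tested EMT factors, 1 rose and 3 fell with MS172, and 2 rose and 3 fell with PK9328. TCF3, which encodes the E-box binding protein E2A, was the rise with MS172 (log2 0.19, adjusted p = 7e-05), and FOXF1, a mesenchymal forkhead factor, was among the falls (log2 -0.55, adjusted p = 0.0019). SOX4 fell with PK9328 (log2 -0.33, adjusted p = 0.001), lost with the covariate (adjusted p = 0.78). Of 24 tested genes of TGF-beta and BMP signalling, 3 rose and 9 fell with MS172 (12.5% and 37.5%), 2 rose and 6 fell with PK9328 (8.33% and 25%), and 6 were higher and 11 lower with MS172 than with PK9328 (25% and 45.8%). The BMP targets ID1 and ID3, which bind E proteins such as that of TCF3, were at 204 ± 11 and 198 ± 1.6 TPM with MS172, 364 ± 26 and 413 ± 16 TPM with PK9328, and 428 ± 13 and 429 ± 9.3 TPM with DMSO. They fell with MS172 by 0.92 and 0.96 log2 (adjusted p = 8.7e-18 and 1.6e-18). The SMAD corepressor SKI rose with MS172 (log2 0.41, adjusted p = 2.9e-08) and fell with PK9328 (log2 -0.26, adjusted p = 0.00013), the second lost with the covariate (adjusted p = 0.56). On summed counts, SMAD4 itself was at 0.00 log2 with MS172 (adjusted p = 0.98) and 0.15 with PK9328 (adjusted p = 0.047), a call lost in 11 of 18 alternatives. Its TPM, given above, differed more between the groups than its counts did.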

How the data were processed

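The identity genes and the further lists were chosen with earlier results of these data known. Each of the 9 deposited tables holds, per the file headers, transcript length, effective length, TPM and estimated counts of reads of 197653 transcripts. The authors corrected TPM for length and library total before they deposited it. FastQC 0.11.8 and the build hg38 stand in the submitters' processing notes, while which program quantified the reads is not given in the sources used here.

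For gene values, identifiers without version were looked up in GENCODE 29 (193348 matched, and 0.356% to 0.382% of reads were left unmatched). The estimated counts were summed for 56865 genes and rounded. Changes were tested in edgeR 4.0.16 by quasi-likelihood (R 4.3.3, robust, TMM scaling, filterByExpr by group) in a single fit of all 9 libraries, with 6 residual degrees of freedom and a common biological coefficient of variation of 0.044. The 13914 genes that passed the filter were adjusted together by Benjamini-Hochberg, and "rose", "fell" or "called" means an adjusted p under 0.05. Each standard error is the log2 change divided by the root of F. Intervals cover the spread between libraries. The mean fragment length of a library was taken from how far effective length fell short of length in transcripts of 3000 bases or more.

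All tested identity genes were named. From each further list a rule took, in each comparison, up to 2 rises and 2 falls of largest size among called genes of at least 1 CPM, plus SMAD4, and examples from these are given. Of the genes this rule takes, several are not reported here. Alternatives were DESeq2 1.42.0, limma-voom (limma 3.58.1), RLE size factors, no filter, a minimum of 1 CPM in 3 libraries, a replicate block, length-scaled TPM, fragment length as a covariate, only the libraries compared, and each library left out.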

Additional observations from a re-analysis of the deposited data

How the results depend on the processing

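Of 965 alternative values of the 18 tested identity genes, 901 kept both direction and side of the threshold, 24 lost a call, 20 gained a call and 20 changed sign. These classes do not overlap, and the sign changes include a lost call of OCLN and a gained call of TJP1, both between the compounds. The identity gene values come from 54 results, of which 23 were called in the reported fit. The 68 results of the other named genes were taken because they were called, so they could not gain a call. Of their 1224 alternative values, 1102 kept both and 122 lost the call. The 2 sets are therefore not a like measure of stability. The cause of these changes was not tested. With counts from length-scaled TPM, 2 identity genes fell with MS172 (1 in the reported fit) and none rose with PK9328. Over all genes 1545 were then lower with MS172, and PK9328 had 1080 calls (541 higher, 539 lower), against 2398 and 2151 as reported. With fragment length as a covariate, PK9328 had 178 calls over all genes (111 higher, 67 lower) and 2 among the identity genes (0 higher, 2 lower), and MS172 against PK9328 had 2480 (1372 higher, 1108 lower) and 5 (4 higher, 1 lower). Rises among the identity genes with PK9328 were 2 with no filter, and 1 to 2 with a library left out. Leaving out each library gave 1384 to 2215 calls for PK9328 over all genes (712 to 1137 higher, 650 to 1107 lower).

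Of the 20 sign changes, OCLN was the only gene called in the reported fit. With length-scaled TPM they were FN1 with PK9328 (1.04), and TJP1 (0.18) and SNAI1 (0.01) between the compounds. With the covariate they were SOX9 (0.10), COL1A1 (0.13) and SPARC (0.17) with PK9328, and OCLN (-0.03), SPARC (-0.02) and SNAI1 (0.01) between the compounds. With a library left out, the values ranged from -0.06 to 0.17 for SNAI1 with MS172, from -0.11 to 0.11 for MUC1, -0.26 to 0.10 for FN1 and -0.46 to 0.05 for SPARC with PK9328, and from -0.62 to 0.11 for GATA6 and -0.15 to 0.09 for SNAI1 between the compounds.

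The replicate numbers did not pair the samples (correlations of same-numbered libraries from -0.06 to 0.02). With the replicate block 4597, 1884 and 6405 genes were called for MS172 against DMSO, PK9328 against DMSO and MS172 against PK9328, and among the identity genes the VIM call with MS172 was lost (0.11, adjusted p = 0.12). The count of identity genes at 1 TPM with DMSO was 15, with 16 at 0.5 TPM, 15 at 2 TPM and 15 with protein-coding transcripts only. Estimated reads, not true counts, set the depth, and GATA6 and FN1, with at most 17 and 20 estimated reads in a library, could not show moderate changes.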
